A study of Mus musculus with 12 samples.

Results

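Lin28a, Lin28b, Trim71, Hmga1, Hmga2, Igf2bp1, Igf2bp2 and Igf2bp3 are genes of early development. Most of them are low or silent in most adult tissues and high again in many tumors. All 8 were chosen by their symbols and not by a cutoff on a measured value, but with earlier results of these data known. They make up 8 of the 21918 protein-coding genes that have both coordinates and RNA values here. Ctr9, a core subunit of the Paf1 complex, which travels with RNA polymerase II (RNAPII) during elongation, was mapped by ChIP-seq with an anti-GFP antibody in Ctr9-GFP knock-in mouse embryonic stem cells (mESCs) of the E14 line and in Ctr9-GFP knock-in NIH3T3 cells, a line of embryonic fibroblasts. Each knock-in was a pool of GFP-sorted cells and not a clone, and the labels give both lines the same medium with serum and LIF, the cytokine that keeps mESCs undifferentiated. H3K27ac, a histone mark of active promoters and enhancers, was mapped in both lines, and the pausing factor subunit NELFA (GFP-tagged) and RNAPII phosphorylated at Ser5 (Ser5p) or Ser2 (Ser2p) were mapped in mESCs alone. According to the paper, NELFA and Ser5p were mapped in NELFA-tagged mESCs, which are other cells than the Ctr9-GFP knock-in pool. RNA-seq was made from each line, and no treatment was given to either. Each of the 7 peak lists and 2 RNA tables came from 1 library, so no value below has a replicate, no test between the lines could be made, and every interval covers counting error only.

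LIN28A and LIN28B are RNA-binding proteins with a cold-shock domain that bind the precursors of let-7 microRNAs and block their maturation, whereas let-7 in turn represses the mRNAs of both. TRIM71 (LIN41) is a TRIM-NHL protein that represses mRNAs, HMGA1 and HMGA2 are architectural proteins that bind AT-rich DNA, and the 3 IGF2BP proteins bind mRNAs through KH domains and affect their stability, transport and translation. In mESCs, Lin28a and Trim71 are known as genes of the undifferentiated state, and the whole group is described in textbooks as let-7 targets.

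The let-7 family is shown here because its seed, bases 2 to 8 of the mature RNA, is the feature that ties the 8 genes to one pathway. The RefSeq entries for GRCm38 held 8 distinct mature forms, given 5′ to 3′ with the seed in capitals, and all 8 carry the same seed.
mmu-let-7a-5p: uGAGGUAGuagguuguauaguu
mmu-let-7b-5p: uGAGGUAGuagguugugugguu
mmu-let-7c-5p: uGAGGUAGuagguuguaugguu
mmu-let-7d-5p: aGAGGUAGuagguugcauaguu
mmu-let-7e-5p: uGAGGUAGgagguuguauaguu
mmu-let-7f-5p: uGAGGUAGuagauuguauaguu
mmu-let-7g-5p: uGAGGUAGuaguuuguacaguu
mmu-let-7i-5p: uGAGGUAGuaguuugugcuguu

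The complement of that seed, CTACCTC on the mRNA strand, was searched in the longest complete 3′ UTR of each gene in GENCODE M21. It was present in 8 of 8 genes with 21 matches in all, whereas 9.02% of 20987 protein-coding genes held at least 1, or 14.9% of the 8718 whose 3′ UTR was as long as those of the 8 genes (1183 to 6337 bases). Lin28b, Trim71, Hmga2 and Igf2bp1 had 4 matches each, a number that 12 of the 20987 genes reached (0.0572%). Lin28a had 2 matches, and Hmga1, Igf2bp2 and Igf2bp3 had 1 each. The 8-base form CTACCTCA occurred 13 times in 7 of the 8 genes and was missing in Hmga1. A match is a string of letters and not a measured binding event. Because the group is described in textbooks as let-7 targets, a high share of matches follows in part from the choice of genes. The shares are therefore a description and not a test.

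The 23-base stretches below (mm10, 5′ to 3′ on the mRNA strand) end in the match, in capitals, and include all 4 of Trim71, whose matches all have the 8-base form, both of Lin28a and 1 for each other gene.
Lin28a, 909 bases after the stop codon, chr4:134005189-134005211, minus strand: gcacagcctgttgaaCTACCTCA
Lin28a, 1547 bases after the stop codon, chr4:134004551-134004573, minus strand: gagatcgccacaaacCTACCTCA
Lin28b, 36 bases after the stop codon, chr10:45381022-45381044, minus strand: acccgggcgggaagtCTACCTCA
Trim71, 166 bases after the stop codon, chr9:114512472-114512494, minus strand: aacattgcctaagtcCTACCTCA
Trim71, 262 bases after the stop codon, chr9:114512376-114512398, minus strand: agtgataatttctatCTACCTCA
Trim71, 3591 bases after the stop codon, chr9:114509047-114509069, minus strand: tttagtatggattttCTACCTCA
Trim71, 3617 bases after the stop codon, chr9:114509021-114509043, minus strand: ttggcaaaaagttgtCTACCTCA
Hmga1, 801 bases after the stop codon, chr17:27563277-27563299, plus strand: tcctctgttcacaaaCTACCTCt
Hmga2, 58 bases after the stop codon, chr10:120364224-120364246, minus strand: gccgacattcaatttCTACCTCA
Igf2bp1, 1715 bases after the stop codon, chr11:95961778-95961800, minus strand: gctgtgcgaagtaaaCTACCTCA
Igf2bp2, 1313 bases after the stop codon, chr16:22059473-22059495, minus strand: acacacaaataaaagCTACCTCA
Igf2bp3, 548 bases after the stop codon, chr6:49086787-49086809, minus strand: tgcatttttactcaaCTACCTCA

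**Figure D1:**
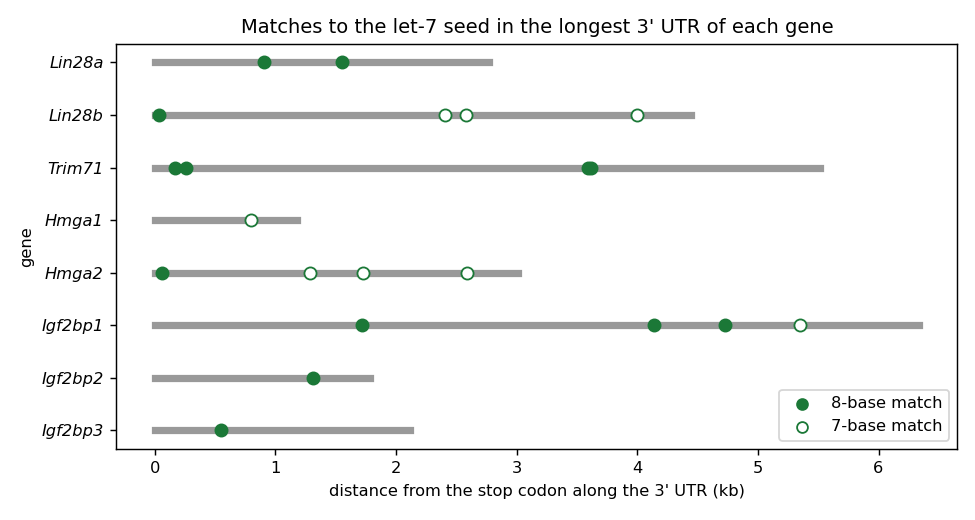
Position of the 21 seed matches (circles, filled for the 8-base form) along the longest 3′ UTR of each gene (grey bars, in kb from the stop codon). Lin28b, Trim71 and Hmga2 have a match close to the stop codon and others far down the 3′ UTR, whereas Hmga1, Igf2bp2 and Igf2bp3 have 1 each.

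Only the unprocessed let-7 genes could be looked for in these tables. The 11 let-7 hairpin genes were listed at 0 in both lines. Their hairpins are 83 to 103 bases long, and mature let-7, shorter still, was not measured by these libraries.

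The RNA level of each gene is given as TPM, a relative level corrected for transcript length and library size, of the transcript with the highest TPM, as the authors defined a gene's value. Differences between the lines are given as log2(TPM + 1), mESC minus NIH3T3, and a gene is counted as higher when it is at least 2-fold apart on that scale. Lin28a, Lin28b, Trim71 and Igf2bp1 were higher in mESCs (4 of 8, against 13.5% of all protein-coding genes). Hmga2 alone was higher in NIH3T3 cells (1 of 8, against 11.3%). Hmga1, Igf2bp2 and Igf2bp3 were less than 2-fold apart. The median difference of the 8 genes was 1.20 on the log2 scale, and that of all protein-coding genes was 0. This background includes 5747 genes listed at 0 in mESCs and 7259 listed at 0 in NIH3T3 cells. The 8 genes had at least 6.57 TPM in mESCs, and 1 of them was at 0 in NIH3T3 cells. The shares among expressed genes alone were not computed. In bulk RNA, fewer cells that express a gene and less RNA per cell cannot be told apart.

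**Figure D2:**
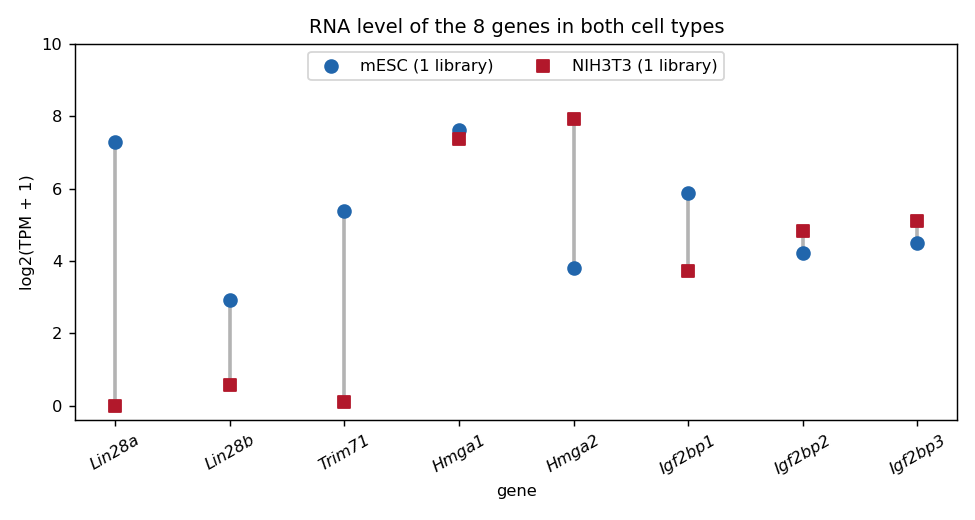
RNA level of the 8 genes as log2(TPM + 1) in mESCs (circles) and NIH3T3 cells (squares), 1 library each, joined by a grey line. Lin28a and Trim71 have the widest gaps towards mESCs, Hmga2 has the gap in the other direction, and the symbols of Hmga1 nearly coincide.

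The lines carried the markers of their labels. All 5 mESC markers (Pou5f1, Sox2, Nanog, Esrrb, Zfp42) were higher in mESCs, at 211 to 1402 TPM, and 4 of them were listed at 0 in NIH3T3 cells, with Nanog at 0.511 TPM. All 7 fibroblast markers were higher in NIH3T3 cells, at 94.5 to 3337 TPM, but Vim and Fn1 were also present in mESCs at 162 and 75.7 TPM. Of the markers of differentiating cells, endoderm genes (Gata4, Gata6, Sox17) lay between 0.146 and 2.21 TPM in mESCs and neuroectoderm genes (Pax6, Sox1) between 1.16 and 2.02 TPM. The part that a few differentiating cells could have in the mESC values was not tested.

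Among the genes that act on let-7, Lin28a stood at 154.7 TPM in mESCs, above 97.5% of protein-coding genes, and was listed at 0 in NIH3T3 cells. All 4 of its transcripts were at 0 there, and 11355 estimated counts in mESCs faced 0. Taking 3 counts in the NIH3T3 library as the floor (0.0421 TPM), Lin28a was at least 3674-fold higher in mESCs. Nearly all of it (99.95% of its counts) was the full-length transcript Lin28a-201.

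Lin28b, its paralog, was far lower. It stood at 6.57 TPM in mESCs and 0.485 TPM in NIH3T3 cells (633 and 52 estimated counts), a difference of 2.35 on the log2 scale. As CPM (counts scaled to the library total), the level in mESCs was 13.3 times that in NIH3T3 cells, with a 95% counting interval of 10.0 to 18.0. Lin28b was the lowest of the 8 genes in mESCs, where Lin28a was second only to Hmga1.

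Trim71 had 1 annotated transcript, at 40.7 TPM in mESCs and 0.0604 TPM in NIH3T3 cells. The latter rested on 14 estimated counts, against 8789 in mESCs. The difference was 5.30 on the log2 scale, and the CPM ratio was 686, with a counting interval of 409 to 1255.

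Of the HMGA genes, Hmga2 was higher in NIH3T3 cells and Hmga1 was at a similar listed level in both lines. Hmga2 stood at 12.9 TPM in mESCs and 244 TPM in NIH3T3 cells, a difference of −4.14 on the log2 scale. By top transcript it was the highest of the 8 genes in NIH3T3 cells, above 98.5% of protein-coding genes, whereas with TPM summed over transcripts Hmga1 was higher (298 TPM, against 249 TPM for Hmga2). The CPM of Hmga2 in NIH3T3 cells was 18.9 times that of mESCs (counting interval 17.6 to 20.2). Hmga1 stood at 197 TPM in mESCs and 166 TPM in NIH3T3 cells, a difference of 0.25 (log2), and CPM gave a ratio of 1.01 (0.985 to 1.04).

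The level of Hmga1 depends on how reads were divided between it and a copy. Hmga1b, an intronless copy at chr11:120762794-120764419, was listed at 308 TPM in mESCs and 211 TPM in NIH3T3 cells, above the top transcript of Hmga1 but below its transcripts summed (358 and 298 TPM). Its transcript of 1626 bases matches the 1631 bases of Hmga1-201 at 91.8% identity, and 88.1% of the 31-base words of Hmga1-201 also occur in it. The split of reads between them is therefore uncertain. Summed over all transcripts of both genes, the level was 666 TPM in mESCs and 509 TPM in NIH3T3 cells, a log2 difference of 0.39. Peaks were sparse at the copy, with 1 Ctr9 peak in mESCs (fold enrichment 4.32), none in NIH3T3 cells and 1 H3K27ac peak in each line (3.31 and 3.75).

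The IGF2BP genes were present in both lines, with Igf2bp1 leaning to mESCs. It stood at 57.9 TPM in mESCs and 12.2 TPM in NIH3T3 cells, a difference of 2.16 on the log2 scale. The transcript behind the second value was Igf2bp1-202, a non-coding processed transcript of 690 bases inside the gene. The full-length coding transcript Igf2bp1-201 (8378 bases) was at 9.84 TPM in NIH3T3 cells, and the difference over protein-coding transcripts, an alternative chosen after the values were seen, was 2.44.

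Igf2bp2 was at 17.5 TPM in mESCs and 27.2 TPM in NIH3T3 cells (log2 difference −0.60). Its coding transcripts Igf2bp2-201 and Igf2bp2-202 were close to each other in both lines, at 17.2 and 17.5 TPM in mESCs and 26.1 and 27.2 TPM in NIH3T3 cells. The processed transcript Igf2bp2-210 was at 6.92 TPM in mESCs and 23.9 TPM in NIH3T3 cells. Igf2bp3 was at 21.8 TPM in mESCs and 33.3 TPM in NIH3T3 cells (log2 difference −0.59). In mESCs Igf2bp1 was the highest of the 3 IGF2BP genes, also with TPM summed over transcripts (138.0 TPM, against 44.7 TPM for Igf2bp2 and 23.4 TPM for Igf2bp3). In NIH3T3 cells the order depended on the measure, with Igf2bp3 the highest by top transcript and Igf2bp2 the highest by summed TPM (80.5 TPM, against 35.1 TPM for Igf2bp3 and 30.7 TPM for Igf2bp1). Without replicates, it was not tested whether neighbors in either order differ.

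Peaks were counted over the gene body, 1 kb before it and 5 kb after it, and a peak belonged to a gene when it overlapped this window by at least 1 base. In mESCs, Ctr9 peaks lay at 6 of the 8 genes, against 44.1% of all protein-coding genes and 73.5% of those with at least 1 TPM. In NIH3T3 cells, Ctr9 peaks lay at 5 of 8, against 25.8% of all genes. These 5 were the ones of the 8 with at least 1 TPM there, since Lin28a, Lin28b and Trim71 were below it. Of all genes with at least 1 TPM in NIH3T3 cells, 44.9% had a Ctr9 peak. H3K27ac peaks lay at 5 of 8 genes in mESCs (background 43.1%) and at 7 of 8 in NIH3T3 cells (background 54.7%). Lin28b, Hmga2, Igf2bp2 and Igf2bp3 are longer than 100 kb. Ctr9 lay at 2 of these 4 in mESCs and at 3 in NIH3T3 cells, against 35.2% and 24.2% of all genes of that length, and H3K27ac at 1 and at 3, against 58.1% and 65.4%. NELFA lay at 1 gene (background 10.4%), Ser5p at 2 (background 12.8%) and Ser2p at 2 (background 6.99%). Several windows are long, and 4 hold a stretch of another protein-coding gene in which peaks lay. The stretch of another gene here means its body and 1 kb upstream of it. Each window is therefore described by position. The depth of the ChIP-seq libraries is unknown, and peak numbers and fold enrichments of the lines are set side by side as the authors called them. The median fold enrichment over a whole list was 3.97 for H3K27ac in mESCs and 6.75 in NIH3T3 cells, and 3.71 and 4.27 for Ctr9, so a fold enrichment from one line is not on the same scale as one from the other.

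**Figure D3:**
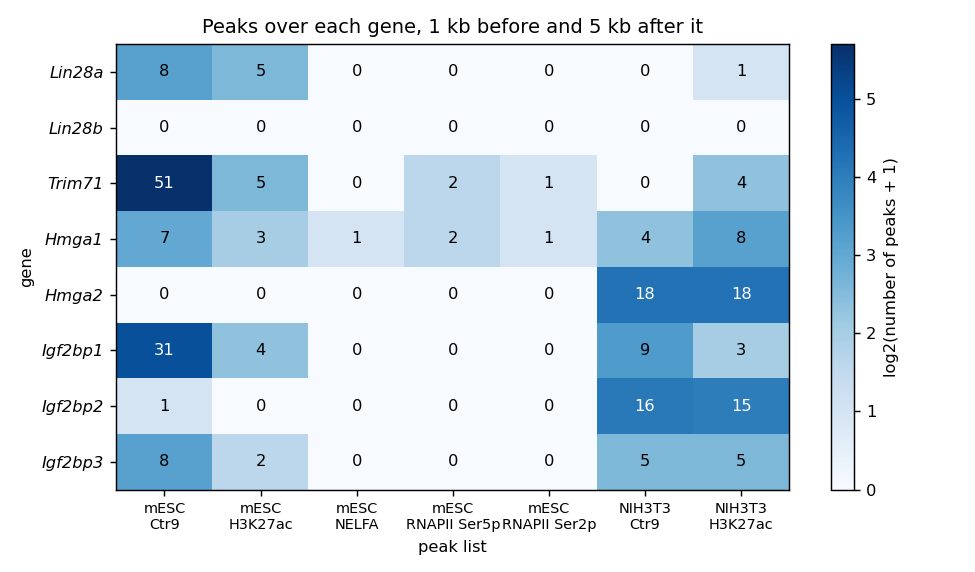
Number of peaks in each of the 7 lists (columns) at each of the 8 genes (rows), shaded by log2(number + 1). Trim71 and Igf2bp1 hold 51 and 31 Ctr9 peaks in mESCs, Hmga2 holds 18 in NIH3T3 cells and none in mESCs, Lin28b has none in any list, and Hmga1 is the only row filled in all 7.

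Over Lin28a, 8 peaks of Ctr9 were called in mESCs and 0 in NIH3T3 cells. Of the former, 7 had their summit in the gene body, at 2.43- to 5.56-fold enrichment. The strongest, 12.7-fold, lay 2632 bp past the gene end and in the stretch of Dhdds, a neighboring gene. The only H3K27ac peak of NIH3T3 cells in the window (10.1-fold) was at the same place, so no peak of NIH3T3 cells remained at Lin28a itself. In mESCs, 5 H3K27ac peaks were found, 4 of them within the gene at up to 3.80-fold, and all 5 overlapped a Ctr9 peak.

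Lin28b had no peak in any of the 7 lists, as did 36.1% of protein-coding genes. Its RNA was nevertheless detected in mESCs at 6.57 TPM.

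Trim71 had the most Ctr9 peaks of the 8 genes in mESCs. Its 51 peaks covered 72.7% of a window of 63.2 kb, and by peak number it was above 99.6% of the genes with a Ctr9 peak. Within the gene the strongest was 6.16-fold at 693 bp after the start. The strongest of all, 11.2-fold at 59.36 kb, lay past the gene end in the stretch of Ccr4, as did the only Ser2p peak of Trim71 (4.82-fold). Of the 51 Ctr9 peaks, 48 had their summit in the stretch of no other protein-coding gene. Those at 48.19 and 49.06 kb lay in that of C130032M10Rik. Ser5p had its main peak 205 bp after the start (6.72-fold), upstream of the first Ctr9 summit. No Ctr9 peak was called at Trim71 in NIH3T3 cells.

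H3K27ac peaks were called inside Trim71 in both lines. In NIH3T3 cells, where its RNA was at 0.0604 TPM, 4 H3K27ac peaks lay inside the gene between 36.6 and 38.5 kb from the start, the strongest at 16.8-fold, and none lay at the promoter. In mESCs, 5 H3K27ac peaks were called, at 2.50- to 3.71-fold. One of them had its summit 11 bp from the strongest NIH3T3 summit, at 2.78-fold. The 300 bases around that NIH3T3 summit are printed because both lines were acetylated there, and no part is set in capitals since neither motif searched in such windows, the octamer and the AP-1 site described next, was found in it. The letters CTACCTCA occur in it as well, outside the 3′ UTR and on the strand opposite to the mRNA.
Trim71 acetylated window, chr9:114526872-114527171, plus strand: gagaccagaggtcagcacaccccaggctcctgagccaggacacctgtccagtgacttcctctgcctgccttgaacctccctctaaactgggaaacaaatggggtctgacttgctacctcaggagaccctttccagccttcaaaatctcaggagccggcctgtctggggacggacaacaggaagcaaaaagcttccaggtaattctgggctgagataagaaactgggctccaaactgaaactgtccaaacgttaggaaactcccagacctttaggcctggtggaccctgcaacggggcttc

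Across the H3K27ac summits at the 8 genes, 300-base windows were searched on both strands for the octamer ATGCAAAT, which OCT4 binds, and the AP-1 site TGACTCA. The octamer was in none of the 19 mESC or 54 NIH3T3 windows, against 0.793% and 0.862% of all windows in the same lists. The AP-1 site was in 2 of 19 and 3 of 54, against 4.71% and 4.95%. These counts are too small to be read as a difference from the lists. The windows cover the summits and not whole peaks. The reverse complement of the octamer, ATTTGCAT, occurs in the Hmga1 promoter printed below, inside an H3K27ac peak of NIH3T3 cells but outside these windows.

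Hmga1 had a peak in all 7 lists, which 2.46% of protein-coding genes had. Near its start in mESCs, the summits of NELFA (7.31-fold) and Ser5p (6.15-fold) lay at −20 and 44 bp, and that of Ctr9 (8.65-fold) lay upstream at −480 bp. NIH3T3 cells had a Ctr9 summit at −143 bp (7.20-fold). H3K27ac peaked at −707 bp in mESCs (5.25-fold) and at −584 bp in NIH3T3 cells (14.0-fold). The strongest Ctr9 peak at any of the 8 genes lay 395 bp past the end of Hmga1, at 24.96-fold and a −log10 q of 171. That stretch also belongs to AI413582, a gene that meets Hmga1 end to end, and the Ser2p peak (8.37-fold) and the second Ser5p peak (7.12-fold) lay there too. Which of the genes these peaks belong to cannot be told apart.

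Hmga2 had peaks in NIH3T3 cells alone, 18 of Ctr9 and 18 of H3K27ac. The Ctr9 peaks covered 89.8% of the 121.2 kb window, more than in 99.3% of genes with a Ctr9 peak there, and the widest was 28.8 kb long. Their fold enrichment ran from 3.74 to 17.0, with the strongest 2723 bp past the gene end. The strongest H3K27ac peaks lay 572 bp after the start (29.7-fold) and deep in the gene at 53.8 kb (26.3-fold). Of the 18 H3K27ac peaks, 15 overlapped a Ctr9 peak. In mESCs, where Hmga2 was at 12.9 TPM, no list had a peak.

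At Igf2bp1, Ctr9 was spread over the gene in mESCs and gathered at its end in NIH3T3 cells. The 31 peaks of mESCs had summits from −0.94 to 51.7 kb, at 2.93- to 7.22-fold, whereas the 9 peaks of NIH3T3 cells began at 42.2 kb and ended at 53.4 kb of a gene of 48.8 kb, at 3.59- to 8.34-fold. H3K27ac was strongest at another place in each line. Its highest peak was 4.99-fold in mESCs, at 24.3 kb inside the gene, and 17.9-fold in NIH3T3 cells, at 341 bp from the start.

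Igf2bp2 had 16 Ctr9 peaks in NIH3T3 cells, with a median summit at 93.8 kb of a gene of 104.3 kb. In mESCs it had 1, of 3.12-fold and 2515 bp past the gene end, which was lost at a −log10 q of at least 5. H3K27ac gave 15 peaks in NIH3T3 cells, the strongest 497 bp after the start (12.9-fold), and none in mESCs. The RNA levels differed less than 2-fold between the lines.

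At Igf2bp3, all 8 Ctr9 peaks of mESCs had summits between 118.2 and 127.1 kb of a gene of 129.7 kb, at 2.58- to 4.13-fold. Of the 5 peaks in NIH3T3 cells, 1 lay near the start at 1.02 kb and 1 lay past the end in the stretch of Malsu1. H3K27ac summits near the start were 19 bp apart in the lines, at 4.57-fold in mESCs and 24.0-fold in NIH3T3 cells. None of the 2 H3K27ac peaks of mESCs overlapped a Ctr9 peak.

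**Figure D4:**
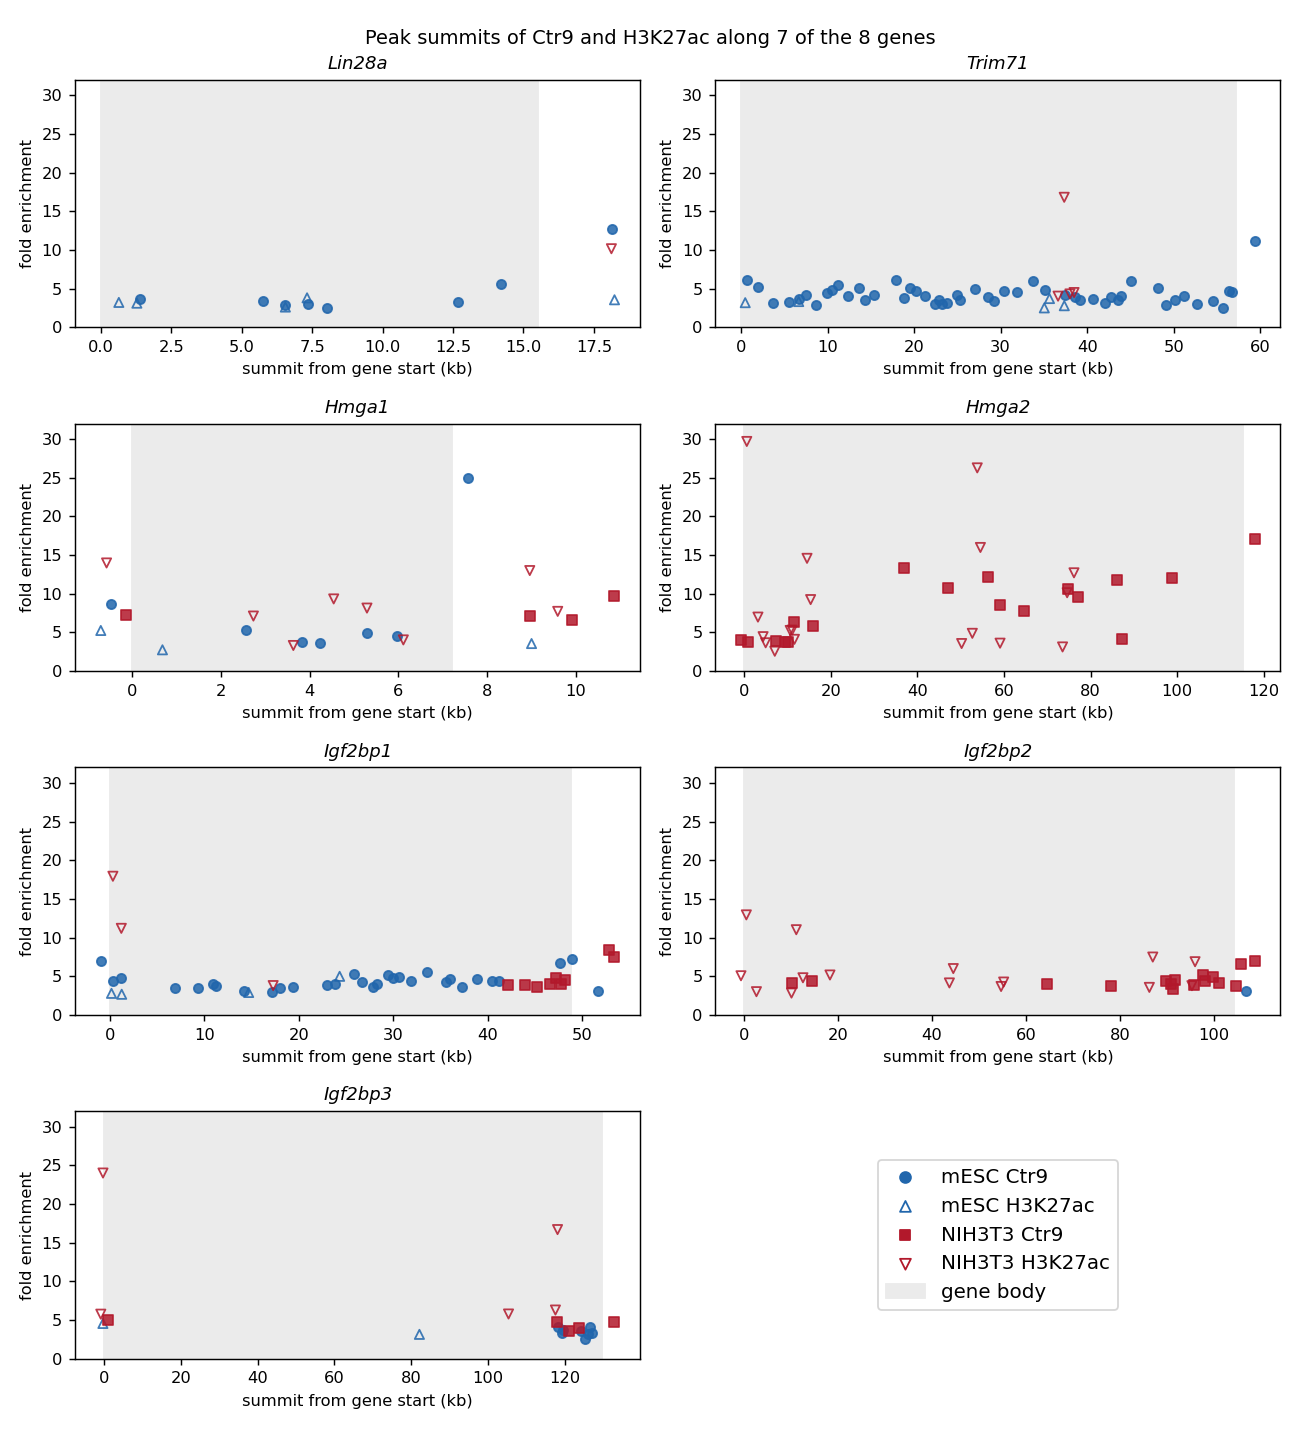
Fold enrichment of each Ctr9 (filled) and H3K27ac (open) peak by the distance of its summit from the gene start (kb), in mESCs (blue) and NIH3T3 cells (red), with gene bodies in grey. Lin28b has no peak and no panel. Ctr9 of mESCs runs along all of Trim71 and Igf2bp1, that of NIH3T3 cells along Hmga2, and that of mESCs lies at the far end of Igf2bp3, whose strongest H3K27ac peaks are at its start.

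Over the 8 genes together, 96 of 106 Ctr9 summits of mESCs lay in gene bodies more than 1 kb from the start, 4 within 1 kb of it and 6 past the end. In NIH3T3 cells the numbers were 39, 3 and 10 of 52. H3K27ac overlapped Ctr9 at 16 of 19 peaks in mESCs and at 22 of 54 in NIH3T3 cells. The matching shares over the whole lists, for positions and for overlaps, were not computed. The Ctr9 list held 44748 peaks in mESCs and 22016 in NIH3T3 cells, so these numbers cannot be read as a trait of the 8 genes or a difference between the lines. Peaks of 1 gene share a library and a stretch of DNA and are not independent.

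RefSeq promoter windows, 250 bases before to 50 after a start in GRCm38, were found for 7 of the 8 genes. A peak overlapped the window of Hmga1 (6 lists), Hmga2 and Igf2bp2 (H3K27ac of NIH3T3 cells) and Igf2bp3 (H3K27ac of both lines). None overlapped that of Lin28a, Lin28b or Trim71, but in mESCs some peaks lay just outside it. At Lin28a this was an H3K27ac peak with its summit 638 bp after the gene start. At Trim71 these were peaks of H3K27ac, Ser5p and Ctr9 with summits 490, 205 and 693 bp after it. The sequences of Hmga1, Hmga2 and Igf2bp3 are printed for the range of peaks they carried. Capitals mark matches on either strand to the TATA box TATAAA, the CCAAT box, the GC box GGGCGG and the E-box CACGTG, which were in 13.6%, 37.4%, 35.7% and 7.15% of 32851 promoters. The octamer was not searched in promoters, so the one in Hmga1 is left in small letters.
Hmga1 promoter, chr17:27556324-27556623, plus strand: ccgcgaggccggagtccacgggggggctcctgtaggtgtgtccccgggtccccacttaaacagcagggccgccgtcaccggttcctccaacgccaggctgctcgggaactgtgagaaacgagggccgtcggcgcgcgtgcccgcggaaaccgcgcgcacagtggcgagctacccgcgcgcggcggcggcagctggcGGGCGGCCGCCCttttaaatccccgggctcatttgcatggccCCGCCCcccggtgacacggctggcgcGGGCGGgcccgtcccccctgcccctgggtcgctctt
Hmga2 promoter, chr10:120476420-120476719, minus strand: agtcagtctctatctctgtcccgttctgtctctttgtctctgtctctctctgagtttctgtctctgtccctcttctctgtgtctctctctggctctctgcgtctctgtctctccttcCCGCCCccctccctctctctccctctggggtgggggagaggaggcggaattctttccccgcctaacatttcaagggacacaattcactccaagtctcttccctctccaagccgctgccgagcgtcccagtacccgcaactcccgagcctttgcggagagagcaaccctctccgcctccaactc
Igf2bp3 promoter, chr6:49214905-49215204, minus strand: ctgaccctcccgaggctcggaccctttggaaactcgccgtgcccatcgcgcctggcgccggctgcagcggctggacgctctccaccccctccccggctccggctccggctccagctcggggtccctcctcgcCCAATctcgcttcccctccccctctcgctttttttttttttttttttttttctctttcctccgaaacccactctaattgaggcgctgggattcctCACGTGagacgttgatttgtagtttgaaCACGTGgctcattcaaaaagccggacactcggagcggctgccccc

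The Hmga1 promoter held 4 GC boxes and 40 CpG dinucleotides, more CpG than 96.1% of promoters. Igf2bp2, with a peak in 1 list, had 47 CpG, more than 98.6% of promoters. Hmga2 had 1 GC box and 12 CpG, and Igf2bp3 had 2 E-boxes, 1 CCAAT box and 25 CpG. None of the 7 genes had a TATA box in its window.

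Most genes that make, degrade or carry let-7 were less than 2-fold apart between the lines, as were most protein-coding genes (16488 of 21918). Of 16 genes for let-7 processing and uridylation, 13 were less than 2-fold apart, with a median log2 difference of −0.15 over the list. None was higher in mESCs (against 13.5% of all protein-coding genes), and 3 were higher in NIH3T3 cells (against 11.3%). The 3 were the Argonaute genes Ago3 (1.48 TPM in mESCs, 5.06 TPM in NIH3T3 cells) and Ago4 (0.277 and 1.93 TPM) and the uridyltransferase gene Tut7 (8.19 and 18.5 TPM). When TPM was summed over transcripts, 1 of the 16 was at least 2-fold higher in NIH3T3 cells.

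Other textbook let-7 targets were spread in both directions. Of 18, 6 were less than 2-fold apart, with a median log2 difference of −0.20 over the list. In mESCs 5 were higher (against 13.5% of all protein-coding genes), and in NIH3T3 cells 7 were (against 11.3%). Those furthest towards mESCs were the DNA-binding factor Arid3b (15.4 TPM, listed at 0 in NIH3T3 cells) and Mycn (18.0 and 0.715 TPM). Furthest towards NIH3T3 cells were Thbs1, which encodes the matrix protein thrombospondin (0.201 and 275 TPM), and the cyclin gene Ccnd2 (1.65 and 39.7 TPM). The seed match was in the 3′ UTR of 10 of these 18, against 9.02% of all protein-coding genes with a complete 3′ UTR. As for the 8 genes, this follows in part from the choice of genes.

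Among 8 other oncofetal genes, 3 were less than 2-fold apart. In mESCs 3 were higher (against 13.5% of all protein-coding genes), and in NIH3T3 cells 2 were (against 11.3%). Sall4, a zinc-finger factor of pluripotent cells, was at 75.3 TPM in mESCs and Peg10, an imprinted retrotransposon-derived gene, at 35.8 TPM, both listed at 0 in NIH3T3 cells. The imprinted gene Dlk1 was at 0.296 TPM in mESCs and 1342 TPM in NIH3T3 cells. Igf2, whose mRNA the IGF2BP proteins were named for, was at 0.719 and 12.8 TPM.

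Relatives of the 8 genes by protein family were less than 2-fold apart in 11 of 14 cases for the cold-shock and KH-domain list, 2 of 7 for the HMG list and 2 of 3 for the TRIM-NHL list. Of the 14 other cold-shock and KH-domain genes, 1 was higher in mESCs (Fxr1, at 162 and 62.1 TPM) and 2 were higher in NIH3T3 cells (Khdrbs1, at 66.5 and 155 TPM, and Carhsp1, at 17.2 and 38.6 TPM). Of 7 other HMG genes, Hmgb2 was higher in mESCs (956 and 299 TPM), and 4 were higher in NIH3T3 cells, led by Hmgn3 (0.597 and 29.2 TPM), with a median log2 difference of −1.05 over the list. Of 3 other TRIM-NHL genes, Trim32 was higher in NIH3T3 cells (3.80 and 25.5 TPM). Beside the counts of these lists, 13.5% of all protein-coding genes were higher in mESCs and 11.3% in NIH3T3 cells.

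**Figure D5:**
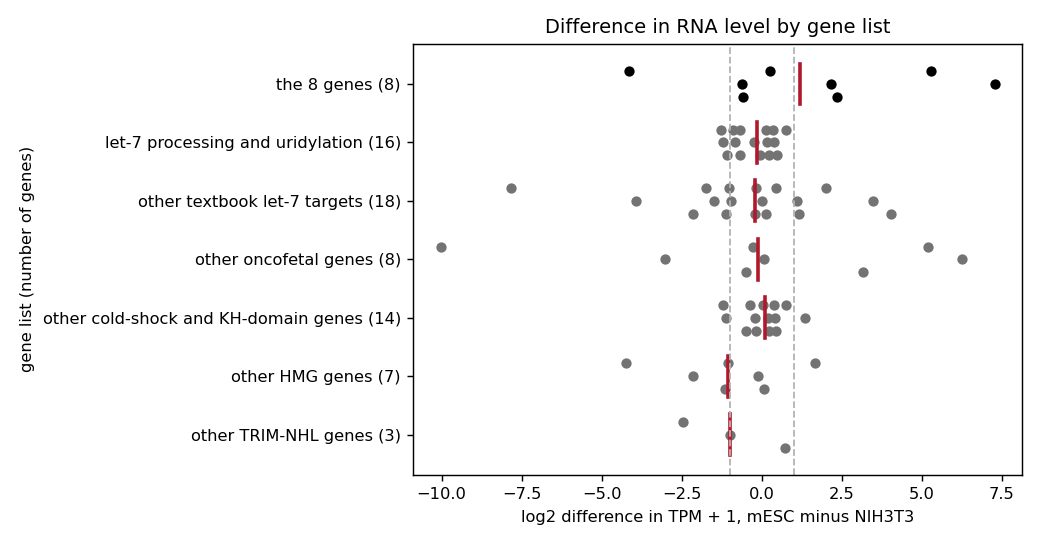
Log2 difference in TPM + 1, mESC minus NIH3T3, of each gene (points) in the 8 genes and 6 related lists, with the median of each list (red bar) and the 2-fold bounds (dashed). The 8 genes have a median of 1.20, and those for let-7 processing have a median of −0.15.

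For each gene, the protein-coding genes with the most similar pattern were found by Euclidean distance over 9 values. These were log2(TPM + 1) in both lines and log2(strongest fold enrichment + 1) in the 7 lists. The strongest peak was taken from the whole window. For Lin28a, Trim71 and Hmga1 it lay in the stretch of a neighboring gene in some lists, so their matches do not describe the gene alone. Nearest to Lin28a was Hsf2bp (70.0 TPM in mESCs, 0.289 TPM in NIH3T3 cells, distance 2.00), followed by Syngr1 and Pmel. Trim71 was nearest to Ccnb1ip1 (distance 1.09), Palm3 and Mylpf, and Lin28b to Anpep (0.012), Gm20379 and Fcgr2b, which like it had RNA and no peak. Hmga1 was nearest to Ndufa7 (0.991), Rps7 and Pcna, and Hmga2 to Anxa5 (15.9 TPM in mESCs, 357 TPM in NIH3T3 cells, distance 1.26), Ccn1 and Abracl. Igf2bp1 was nearest to Brca1 (0.802), Jmjd1c and Nol9, Igf2bp2 to Fibp (0.552), Impdh1 and Foxk2, and Igf2bp3 to Kpna6 (0.298), Top2b and Tnks.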

How the data were processed

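ChIP-seq and RNA-seq of mouse E14 mESCs and NIH3T3 cells were analysed from 9 of 12 samples, with the 3 inputs not used here. For ChIP-seq, the authors aligned reads to mm10 with bowtie2 2.3.5.1, removed blacklisted regions and called peaks per library with macs2 2.2.6 (q-value cutoff 0.01). The deposited lists give fold enrichment as a ratio over local background, −log10 p, −log10 q and a score made from q. RNA-seq reads were quantified by the authors against GENCODE M19 with kallisto 0.46.1, which gave the deposited TPM values and estimated counts of each transcript. Whether bias correction was used is not given in the sources used here.

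The mESC library held 26400407 estimated counts and the NIH3T3 library 28849497. ChIP-seq depth is unknown. Gene positions and 3′ UTRs came from GENCODE M21 (mm10). A gene's value was its highest transcript TPM, with a pseudocount of 1 for log2 differences. Intervals are 95% exact, on rounded estimated counts. Computations used Python 3.11.15, pandas 2.3.3, NumPy 2.4.6, SciPy 1.17.1 and Matplotlib 3.10.9, and 8 of 8 checks on simulated data passed. Named genes are the 8 genes, the 3 nearest patterns of each, and up to 2 per direction from related lists. Tut7, Dhdds, Ccr4, C130032M10Rik, AI413582 and Malsu1 were named after their values were seen. Genes and lists were chosen with earlier results of these data known.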

Additional observations from a re-analysis of the deposited data

How the results depend on the processing

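All 24 alternative settings listed at the start were computed, and 4 more were chosen after seeing the data. No difference between the lines changed direction. Levels depended most on summing TPM over transcripts, which raised Igf2bp1 to 138.0 TPM in mESCs and 30.7 TPM in NIH3T3 cells, Igf2bp2 to 44.7 and 80.5 TPM and Hmga1 to 358 and 298 TPM, and changed which gene was highest in NIH3T3 cells, among all 8 and among the IGF2BP genes. The 4 genes higher in mESCs and the 1 higher in NIH3T3 cells stayed at those numbers under summed TPM, a pseudocount of 0.1 TPM, median-of-ratios scaling, CPM, a minimum of 1 TPM, a 4-fold bound and protein-coding transcripts alone. The median log2 ratio over 9641 genes was 0.079. With a pseudocount of 0.1 TPM, the log2 differences of Lin28b and Trim71 grew from 2.35 to 3.51 and from 5.30 to 7.99. The number of genes with a Ser2p peak fell from 2 to 1 with the gene body only or with 1 kb on each side. It fell to 0 with peaks in no other protein-coding gene, since both summits lay in the stretch of a neighbor. The 21 let-7 matches became 13 with the 8-base form. Counts in NIH3T3 cells changed for let-7 processing genes (3 to 1 with summed TPM), other oncofetal genes (2 to 4 with a pseudocount of 0.1 TPM) and other TRIM-NHL genes (1 to 2 with either). No paired analysis was possible because each group had 1 library.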
